A study of Mus musculus with 21 samples.

Results

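Respiratory complexes III, IV and V were followed through their nuclear genes, chosen by name as the rows of the expression table whose symbols begin with Uqcr, Cox4, Cox5, Cox6, Cox7, Cox8 or Atp5, leaving out 1 pseudogene name with the ending -ps. They were 45 of 37310 genes, 8 named for complex III, 19 for complex IV and 18 for complex V. RNA was sequenced in bulk from sorted Lgr5 cells, which are crypt base stem cells of the intestine, of Lgr5EGFPcre-ERT2 mice aged 3 months that had been on purified diets since weaning. The sort took the brightest cells for EGFP, which this allele places under the Lgr5 gene, and each of 7 groups held 3 libraries. AIN_VdrKO mice ate AIN76A and are labelled as lacking the vitamin D receptor gene Vdr, AINlowVitD mice ate AIN with vitamin D at 0.11 IU/g, NWD1VitD mice NWD1 with vitamin D at 2.3 IU/g, and NWD1Ca mice NWD1 with calcium at 7.0 mg/g. NWD1 and NWD2 mice ate the modified diets of those names, whose composition no source used here states, and AIN mice ate AIN76A, a purified control diet. The labels state the vitamin D and calcium amounts per g of body weight. All mice carried the Lgr5EGFPcre-ERT2 allele, the NWD1Ca libraries came from females only, the AIN_VdrKO libraries from males only, and the other groups from both sexes.

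Complexes III, IV and V carry out the last steps of respiration in the inner mitochondrial membrane. Complex III passes electrons from ubiquinol to cytochrome c, complex IV passes them from cytochrome c to oxygen, and both pump protons, whose return flow drives complex V, the ATP synthase. Most subunits are encoded in the nucleus and a few in mitochondrial DNA, and several subunits of complex IV come as paralogs, among them Cox7a1 and Cox6a2, known as the heart and skeletal muscle forms, and Cox7a2 and Cox6a1, the forms found widely. Crypt stem cells and their Paneth cell neighbours are known to differ in their use of mitochondrial respiration.

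Not every gene with such a name is a subunit. Cox7a2l is known as a factor that joins complexes III and IV into supercomplexes, Cox4nb lies beside Cox4i1 and belongs to a protein complex of the endoplasmic reticulum, and Atp5s and Atp5sl are now named Dmac2l and Dmac2. Atp5l2 is a near-identical copy of Atp5l, so its reads, and some of those of Atp5l, cannot be placed with certainty. Of the 45 genes, 41 had enough counts to be tested. The other 4 were complex IV genes. Cox4i2, the lung and hypoxia form of Cox4, had 31 counts summed over 21 libraries and at most 5 in any, the muscle form Cox8b had 6, the germ cell form Cox8c had 1, and Cox7b2 had 0.

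The promoters of 3 genes named below are shown, 1 from each complex. Cox7a1 was the member that differed between NWD1 and AIN, and Atp5k had the largest rises in complex V. Uqcrh, the hinge protein of complex III, was among the complex III genes of smallest p in 3 comparisons. Uqcrq had the smallest p of complex III in AINlowVitD against AIN and in NWD1Ca and NWD1VitD against NWD1. No RefSeq promoter was matched to Uqcrq. The 250 bases before the transcript start are given 5′ to 3′ from RefSeq (GRCm38.p6), at chr7:30183921-30184170 on the plus strand for Cox7a1, chr5:108434400-108434649 on the minus strand for Atp5k and chr4:116075071-116075320 on the minus strand for Uqcrh, with the letters of NRF1 (CGCNTGCG) or GABPA (CCGGAAG) in capitals on either strand.
Cox7a1: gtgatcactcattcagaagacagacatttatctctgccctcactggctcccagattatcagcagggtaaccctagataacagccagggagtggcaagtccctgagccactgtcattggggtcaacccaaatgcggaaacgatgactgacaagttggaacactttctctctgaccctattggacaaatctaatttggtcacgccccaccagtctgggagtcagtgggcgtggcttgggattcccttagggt
Atp5k: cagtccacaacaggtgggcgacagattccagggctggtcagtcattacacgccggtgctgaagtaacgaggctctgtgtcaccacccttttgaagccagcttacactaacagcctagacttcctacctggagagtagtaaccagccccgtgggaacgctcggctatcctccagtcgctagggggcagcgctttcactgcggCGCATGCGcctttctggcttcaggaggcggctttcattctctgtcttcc
Uqcrh: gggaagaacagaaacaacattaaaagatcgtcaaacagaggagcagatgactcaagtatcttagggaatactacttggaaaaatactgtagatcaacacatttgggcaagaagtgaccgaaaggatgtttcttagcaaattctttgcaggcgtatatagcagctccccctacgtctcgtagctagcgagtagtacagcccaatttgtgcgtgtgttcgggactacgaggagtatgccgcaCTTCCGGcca
NRF1 and GABPA are transcription factors known to act on many respiratory genes, and YY1 (AAGATGGC) is another. Of the 45 genes, 34 had a RefSeq promoter of 300 bases, from 250 before to 50 after the start. NRF1 letters were in 12 of the 34 (35.3%), against 8.42% of 27025 promoters of the same length. GABPA letters were in 9 (26.5%, against 9.12%) and YY1 letters in 3 (8.82%, against 2.88%), and 18 promoters (52.9%, against 18.1%) held at least 1 of the 3. In the 250 bases shown, Cox7a1 had no match, Atp5k 1 for NRF1 and Uqcrh 1 for GABPA, and none overlapped. In the window of 300 bases Atp5k also held GABPA letters, which reach past the bases shown.

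The libraries differed in more than diet. They held between 19889795 and 115435120 counts on genes. The mitochondrial ribosomal RNA genes held 2.95% to 5.07% of all counts on genes in AINlowVitD, NWD1VitD and NWD1Ca, 1.38% to 2.80% in AIN_VdrKO, and 0.234% to 0.965% in NWD1, NWD2 and AIN. The relative levels of ERCC spike-ins, synthetic RNAs added during preparation, differed as well. AIN 2, with 12 counts on spike-ins, did not enter their test, so AIN entered it with 2 libraries, and spike-ins made up 24.7%, 20.4% and 5.24% of counts in NWD1. Of 78 tested with edgeR, 44 (56.4%) differed between AINlowVitD and AIN, 51 (65.4%) between NWD1Ca and NWD1, 54 (69.2%) between NWD1VitD and NWD1, 7 (8.97%) between AIN_VdrKO and AIN, and 0 in NWD1 or NWD2 against AIN or in NWD1VitD against NWD1Ca. With AIN 2 unmeasured and the shares in NWD1 uneven, the 0 calls do not show that those libraries were prepared alike. The labels give an index pair for each library, and some pairs recur between groups, but they name no batch. In the first 3 of these comparisons a difference in preparation and the diet therefore cannot be told apart. The same holds for preparation and genotype in AIN_VdrKO against AIN, where the mitochondrial ribosomal RNA shares did not overlap. Lgr5 was counted in every library, at 9.49 to 87.2 CPM (counts scaled to library size). The epithelial gene Epcam was at 568, 2107 and 311 CPM in AIN and at 314 to 684 CPM in NWD1 and NWD2. It was at 2006 to 2723 CPM in AIN_VdrKO, AINlowVitD, NWD1VitD and NWD1Ca. Vdr stood at 297, 482 and 247 CPM in the libraries labelled AIN_VdrKO and at 338, 373 and 746 CPM in AIN. A count over the whole gene does not tell which exons were read, so these values do not check the knockout.

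The 45 genes together took 5.43% to 7.79% of gene counts in AINlowVitD, NWD1VitD and NWD1Ca, 2.59% to 5.05% in AIN_VdrKO, and 2.04% to 4.11% in NWD1, NWD2 and AIN. Levels are given in TPM, counts per gene length scaled to the same sum in every library. The complex IV genes summed to 51384, 40882 and 48231 TPM in AINlowVitD, 48768, 39955 and 31817 in NWD1VitD and 46091, 43885 and 47007 in NWD1Ca. They summed to 35592, 19812 and 17807 TPM in AIN_VdrKO, 25406, 19969 and 13332 in NWD1, 18473, 18718 and 16689 in NWD2 and 28936, 22477 and 19369 in AIN. Every library of AINlowVitD, NWD1VitD and NWD1Ca lay above every NWD1, NWD2 and AIN library, and AIN_VdrKO 1 stood apart from the other AIN_VdrKO libraries. Complex III followed the same order, at 13845 to 24072 TPM in the first 3 groups and 6641 to 12446 in NWD1, NWD2 and AIN. Complex V did not, since NWD1VitD 3 had 10678 TPM and AIN 1 had 15116. In bulk samples, a change in the makeup of the sorted cells and a change in RNA per cell cannot be told apart.

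**Figure D1:**
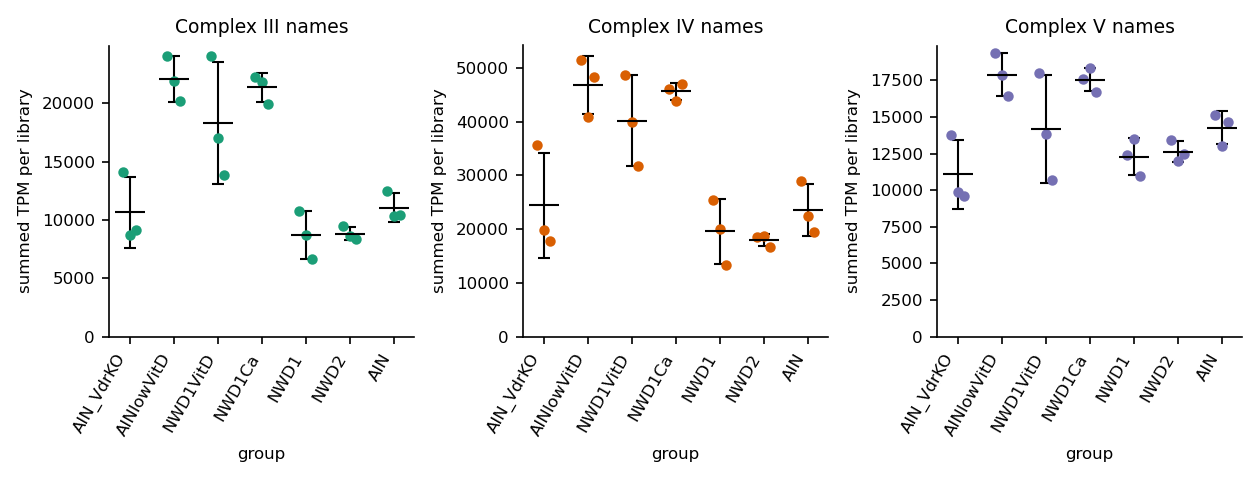
Summed TPM of the nuclear genes of complexes III, IV and V in each of the 21 libraries, 1 panel per complex, with groups on the horizontal axis; points are libraries, long bars are group means and whiskers are 1 SD (n = 3). Complex IV lies between 31817 and 51384 TPM in AINlowVitD, NWD1VitD and NWD1Ca and between 13332 and 28936 TPM in NWD1, NWD2 and AIN.

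NWD1 was compared with AIN to see what that diet does relative to the control diet. Cox7a1 (ENSMUSG00000074218.2), the muscle form of a small complex IV subunit, fell. It had 201, 114 and 184 TPM in NWD1, against 1175, 804 and 714 TPM in AIN, and the groups did not overlap. Its mean was 22.6 ± 9.44 CPM in NWD1 and 167 ± 70.8 CPM in AIN (SD, n = 3 each), a log2 fold change of -2.63 ± 0.57 (SE, adjusted p = 0.0359, edgeR quasi-likelihood test). It was the only one of the 41 members called in this comparison, in which 0.766% of 16050 genes were called and 0.660% were lower. The call rested on single libraries. Its log2 fold change was -2.28 without AIN 1 (adjusted p = 0.119), -2.84 without AIN 3 (adjusted p = 0.0606), -3.12 without NWD1 1 (adjusted p = 0.0568), -2.45 without NWD1 2 (adjusted p = 0.14) and -2.31 without NWD1 3 (adjusted p = 0.081), and -2.73 without AIN 2 (adjusted p = 0.0425).

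Cox7a1 was also compared with its paralog within each library. Cox7a2 (ENSMUSG00000032330.6), the widely expressed form, had 1723, 959.8 and 834 TPM in NWD1, against 2180.1, 1673 and 1467 TPM in AIN. Cox7a1 made up 10.5%, 10.6% and 18.03% of the TPM of the pair in NWD1, against 35.0%, 32.5% and 32.7% in AIN. In NWD2 the share was 10.5%, 31.1% and 37.0%, so that NWD2 1 stood with the NWD1 libraries and the other two with AIN. The coding sequences of the pair are alike in length, at 267 nt for Cox7a1 and 249 nt for Cox7a2. The share was 19.6%, 29.6% and 19.5% in AIN_VdrKO, below all AIN libraries. It was 63.5%, 54.0% and 49.0% in AINlowVitD, 52.7%, 62.6% and 58.4% in NWD1VitD and 56.6%, 49.98% and 43.1% in NWD1Ca, above every AIN, NWD1 and NWD2 library. The shares were not tested.

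**Figure D2:**
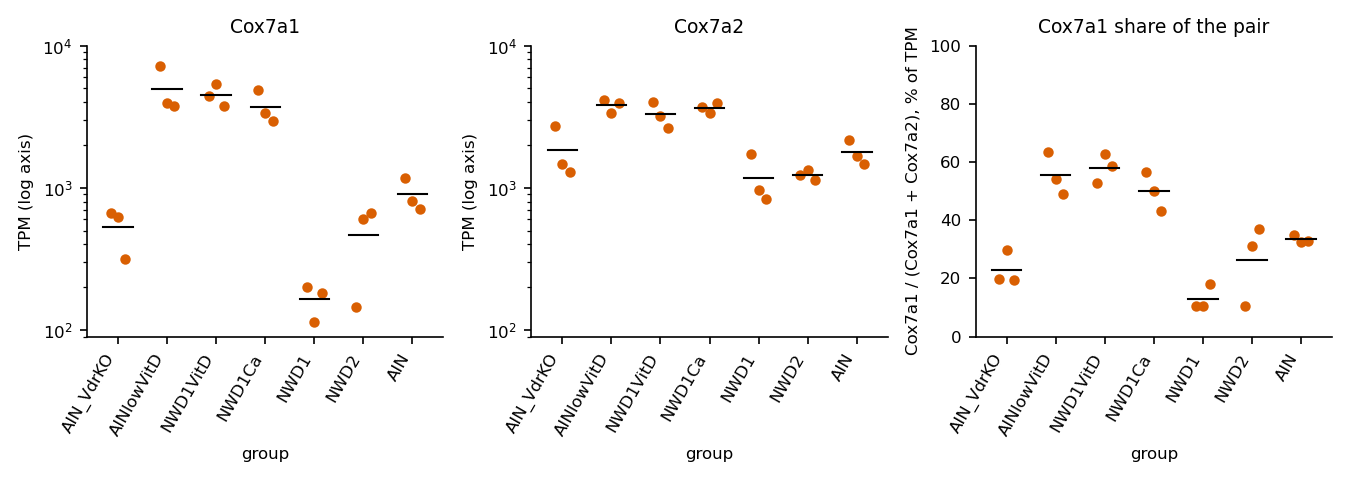
Cox7a1 and Cox7a2 in each library by group, in TPM on a log axis, and Cox7a1 as a percentage of the TPM of the pair; points are libraries and bars are group means (n = 3). Cox7a1 lies at 114 to 201 TPM in NWD1, 714 to 1175 in AIN and 2968 to 7192 in AINlowVitD, NWD1VitD and NWD1Ca.

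The sums of the enterocyte and Lgr5 stem cell lists stood apart between NWD1 and AIN. The sums of the Paneth, goblet, enteroendocrine and tuft cell lists, given below, overlapped between these 2 groups. The 9 enterocyte genes of the marker list, all counted in every library, summed to 1583 to 3479 CPM in NWD1, 2287 to 17795 in NWD2 and 12498 to 18038 in AIN, and the 8 Lgr5 stem cell genes to 6277 to 9132 CPM in NWD1, 2819 to 10324 in NWD2 and 2107 to 3999 in AIN. Olfm4 made up most of the stem cell sum, at 5978, 8037 and 5495 CPM in NWD1, against 1792, 3162 and 3558 in AIN. Lgr5 and Ascl2, taken singly, overlapped. Lgr5 was at 44.8, 59.9 and 81.7 CPM in NWD1, against 9.49, 24.4 and 45.3 in AIN. Ascl2 was at 94.1, 62.6 and 31.5 CPM in NWD1, against 10.7, 35.1 and 13.4 in AIN. The part of these cell types in the level of Cox7a1 was not tested. The 7 fibroblast and muscle genes, Myh11, Acta2 and Des among them, were near 0 and summed to at most 1.5 CPM in any library. In no group were more than 2 of these 7 counted in all 3 libraries.

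The other members lay lower in NWD1 without passing the test. Of 41, 39 had a negative log2 fold change, the median was -0.78 against -0.04 for all genes tested, and 14 (34.1%) had an unadjusted p under 0.05 against 15.2% of all genes. In complex III the smallest p-values belonged to the core protein Uqcrc2, at -0.66 ± 0.24 (adjusted p = 0.172), and the hinge protein Uqcrh, at -1.08 ± 0.46 (adjusted p = 0.268). In complex V they belonged to Atp5f1, subunit b of the stalk that holds the motor in place, at -0.97 ± 0.26 (adjusted p = 0.0737), and Atp5c1, the turning gamma subunit, at -0.81 ± 0.28 (adjusted p = 0.162). Atp5f1 had 404, 433 and 399.6 TPM in NWD1, against 611, 549 and 592 TPM in AIN, with no overlap. Cox6a2, the muscle form of another small complex IV subunit, had 1, 0 and 1 counts in NWD1 and 13, 17 and 2 in AIN (adjusted p = 0.134). On log2(TPM + 1) the median over members was -0.36, where that of all genes was 0.25. With 1 library left out at a time, the median on scaled counts ranged from -0.39 (without NWD1 3) to -1.22 (without AIN 3).

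NWD2 was compared with AIN for the other modified diet. No member passed, as no gene of 16050 did (0% called, 1099 genes or 6.85% with an unadjusted p under 0.05, no member called by DESeq2). Of the 41 members, 20 (48.8%) had an unadjusted p under 0.05, 39 had a negative log2 fold change, and the libraries of 28 (68.3%) did not overlap in CPM, all lower in NWD2, against 6.11% of all genes lower without overlap. The median was -0.91, against 0.00 for all genes. Complex III had a median of -1.02, complex IV -0.89 and complex V -0.87. The smallest p-values were those of the Rieske iron-sulphur protein Uqcrfs1, at -1.03 ± 0.36, and Uqcrb, at -1.11 ± 0.47, in complex III, of Cox7a2l, at -0.70 ± 0.26, and Cox7b, at -1.15 ± 0.46, for complex IV, and of Atp5f1, at -0.75 ± 0.26, and Atp5l, at -1.28 ± 0.44, in complex V, each with an adjusted p of 0.718. Cox7b had 912, 857 and 796 TPM in NWD2, against 1585, 1316 and 1065 TPM in AIN. For Cox7b every NWD2 library lay below every AIN library. Uqcrfs1 had 554, 382 and 449.9 TPM in NWD2, against 496, 1185 and 442 TPM in AIN, where AIN 2 was far above the rest. Without AIN 1, AIN 2 and NWD1 1 its log2 fold change was 0.01 and the median over members was -0.23, a fit in which AIN 3 is alone in its group and its spread is taken from the others. Without AIN 3 the median was -1.31 and 5 members were called, where 840 of all genes were. NWD1 and NWD2 are both set against the AIN libraries, so their folds are not independent.

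AINlowVitD was compared with AIN for less vitamin D in the control diet. Small subunits of all 3 complexes rose together, Atp5k and Cox7a1 the most, while the large core protein Uqcrc1 fell. Of the 41 members 26 rose and 1 fell, against 15.1% of all genes higher and 16.3% lower, 31.3% in all. The median log2 fold change over members was 2.04, against -0.10 for all genes. In complex III 5 of 8 rose and 1 fell, in complex IV 12 of 15 rose, and in complex V 9 of 18 rose, with medians of 2.26, 2.21 and 1.00. Rises and falls of single genes are given as log2 fold changes ± SE on scaled counts.

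In complex III, Uqcrq (ENSMUSG00000044894.8), a small accessory subunit, had 2875, 2606 and 2109.9 TPM in AINlowVitD, against 949, 668 and 637 TPM in AIN. Every AINlowVitD library lay above every AIN library, at 5112 ± 729.9 CPM against 698 ± 267 (SD, n = 3 each), a log2 fold change of 2.86 ± 0.49 (adjusted p = 0.000472). Uqcr10, another small subunit, rose by 2.95 ± 0.52 (adjusted p = 0.000638). The core protein Uqcrc1 (ENSMUSG00000025651.8) fell instead, by 0.82 ± 0.28 on the log2 scale (adjusted p = 0.0353). It had 604, 578 and 633 TPM in AINlowVitD, against 2275, 1836 and 3213 TPM in AIN, with no overlap. The second core protein Uqcrc2 had 216, 201 and 206 TPM in AINlowVitD, against 579, 541 and 745 TPM in AIN, and -0.40 ± 0.23 on scaled counts (adjusted p = 0.188). The Rieske protein Uqcrfs1 had 0.59 ± 0.35 (adjusted p = 0.204). The call of Uqcrc1 was lost with DESeq2's size factors, with no filter on low counts, with only the 2 groups, and without any single library of the comparison other than AIN 2, with log2 fold changes of -0.57 (without AIN 1) to -0.87 (without AINlowVitD 3).

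In complex IV, Cox7a1 had 7192, 3958 and 3769 TPM in AINlowVitD and rose by 3.62 ± 0.57 over AIN (adjusted p = 0.000287). Cox6c, a small membrane subunit, rose by 2.84 ± 0.47 (adjusted p = 0.000386), to 1302, 1207 and 979 TPM in AINlowVitD, against 376, 432 and 248 TPM in AIN. Cox7a2 rose by 2.22 ± 0.45 (adjusted p = 0.00165) and Cox8a, the widely expressed form of Cox8, by 1.97 ± 0.44 (adjusted p = 0.00287). Cox4i1, the largest nuclear subunit of complex IV, had 3849.9, 3271 and 5531 TPM in AINlowVitD, against 5537, 3684 and 3637 TPM in AIN. These libraries overlapped in TPM, and the log2 fold change was 1.05 ± 0.40 on scaled counts (adjusted p = 0.0517) and -0.03 on log2(TPM + 1).

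In complex V, Atp5k (ENSMUSG00000050856.10), subunit e of the membrane part, where synthase molecules pair, had 4889, 4888 and 2311 TPM in AINlowVitD, against 859.9, 700.99 and 581 TPM in AIN. It rose by 3.61 ± 0.54 (adjusted p = 0.000199), at 2722 ± 948 CPM against 223 ± 79.3 (SD, n = 3 each). Atp5j2, subunit f of the membrane part, rose by 3.06 ± 0.51 (adjusted p = 0.000424). Atp5g1, Atp5g2 and Atp5g3 encode the same c subunit of the proton-turned ring and did not move alike: Atp5g1 rose by 1.92 ± 0.44 (adjusted p = 0.00363), while Atp5g3 had 0.86 ± 0.49 (adjusted p = 0.189), and -0.29 on log2(TPM + 1). Whether these 2 folds differ was not tested. The catalytic beta subunit Atp5b had 808, 751 and 728 TPM in AINlowVitD, against 2377, 2496 and 3090.1 TPM in AIN, with no overlap, and a log2 fold change of -0.62 ± 0.27 on scaled counts (adjusted p = 0.0811).

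Levels in TPM and folds on scaled counts run apart in the comparisons across differing libraries. On log2(TPM + 1) the median of all genes was -0.65 in AINlowVitD against AIN, -0.78 in NWD1Ca against NWD1 and -0.95 in NWD1VitD against NWD1. The members' medians there were 0.88, 1.26 and 0.83. The counts of members were then 23 higher and 9 lower in AINlowVitD, 23 higher and 10 lower in NWD1Ca, and 22 higher and 11 lower in NWD1VitD. Of all genes, 4.57%, 5.15% and 4.36% were then higher and 45.9%, 51.5% and 60.3% lower, so how many members fell depends on the scaling, while the members' median stayed above 0.

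NWD1Ca was compared with NWD1 for added calcium. Small subunits rose here as well. Cox7a1, second only to Cox6a2 with its few counts, had 4843, 3352 and 2968 TPM in NWD1Ca, against 201, 114 and 184 TPM in NWD1, a log2 fold change of 5.41 ± 0.67 (adjusted p = 4.56e-05). Of 41 members 28 rose and 0 fell, against 15.6% of all genes higher and 30.5% called in all, and the median over members was 2.45, against -0.04 for all genes. By complex, 5 of 8 rose in complex III, 14 of 15 in complex IV and 9 of 18 in complex V. Uqcrq rose by 3.5 ± 0.56 (adjusted p = 0.000335) and Uqcrh by 3.00 ± 0.51 (adjusted p = 0.000526). Uqcrh had 2061, 1780.0 and 2179.6 TPM in NWD1Ca, against 903, 594 and 438 TPM in NWD1, and every NWD1Ca library lay above every NWD1 library. Uqcrc1 had -0.53 ± 0.31 (adjusted p = 0.203).

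Among the other complex IV genes, Cox6c rose by 3.67 ± 0.54 (adjusted p = 0.000201), to 1256, 1184 and 1112 TPM in NWD1Ca, against 293, 212 and 155 TPM in NWD1. Cox7a2 rose by 2.95 ± 0.52 (adjusted p = 0.000641) and Cox7a2l by 1.17 ± 0.28 (adjusted p = 0.00471). Cox7a2l had 123, 127 and 150.3 TPM in NWD1Ca, against 174, 131 and 139.5 TPM in NWD1, and -0.10 on log2(TPM + 1), and its call was lost without NWD1 3, at 0.89 (adjusted p = 0.0697). Cox4i1 rose by 1.43 ± 0.46 (adjusted p = 0.0239), a call lost on log2(TPM + 1), at 0.19, with a length offset, at 0.26, with only the 2 groups, at 1.17, and without NWD1 2, NWD1 3 or NWD1Ca 3. Cox6b2, known as the testis form of its subunit, had 60.5, 84.0 and 70.6 TPM in NWD1Ca, against 56.9, 43.5 and 21.4 TPM in NWD1, and rose by 2.24 ± 0.81 (adjusted p = 0.0418), a call lost on log2(TPM + 1) and with the length offset, at 1.02 and 0.86, and without NWD1 2, NWD1 3 or any NWD1Ca library. Cox6a2 was called on few counts, 38, 15 and 22 in NWD1Ca against 1, 0 and 1 in NWD1, and its fitted fold depends on the prior count. In complex V, Atp5k rose by 4.31 ± 0.62 (adjusted p = 0.000172), to 3966, 5063 and 3198 TPM in NWD1Ca, against 656, 416 and 295 TPM in NWD1, and Atp5l, subunit g, by 3.26 ± 0.50 (adjusted p = 0.000281).

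NWD1VitD was compared with NWD1 for added vitamin D. Cox7a1 had the largest log2 fold change of the members, with 4449, 5374 and 3727 TPM in NWD1VitD, against 201, 114 and 184 TPM in NWD1, a log2 fold change of 6.27 ± 0.65 (adjusted p = 4.96e-06). Of 41 members 29 rose and 2 fell, against 19.9% of all genes higher and 20.6% lower, 40.5% in all, and the median over members was 2.37, against -0.03. By complex, 6 of 8 rose and 1 fell in complex III, 14 of 15 rose in complex IV, and 9 of 18 rose and 1 fell in complex V. Uqcrq rose by 3.45 ± 0.50 (adjusted p = 7.44e-05), Uqcrh by 3.03 ± 0.46 (adjusted p = 0.000101), Cox6c by 3.69 ± 0.49 (adjusted p = 3.83e-05), Atp5k by 4.16 ± 0.56 (adjusted p = 4.18e-05) and Atp5l by 3.27 ± 0.45 (adjusted p = 4.94e-05). Atp5k had 3813, 2974 and 2128 TPM in NWD1VitD, against 656, 416 and 295 TPM in NWD1, with no overlap.

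The members that fell were Uqcrc1, by 0.76 ± 0.28 on the log2 scale (adjusted p = 0.0403), and Atp5sl, by 0.61 ± 0.23 (adjusted p = 0.0386). Uqcrc1 had 564, 429 and 305 TPM in NWD1VitD, against 1921, 2382 and 2209.9 TPM in NWD1. The Atp5sl libraries overlapped in CPM. Both calls were lost with DESeq2's size factors, with no filter on low counts, with only the 2 groups and without NWD1 1, NWD1 2 or NWD1VitD 3. That of Uqcrc1 was also lost without NWD1VitD 2, and that of Atp5sl without NWD1VitD 1 and with the length offset. Without NWD1 1 and NWD1 2 together Atp5sl had -0.08. Among the rises, Uqcrfs1 had 0.94 ± 0.34 (adjusted p = 0.0364) and Cox6b2 1.75 ± 0.67 (adjusted p = 0.0445), and both calls were lost with the length offset and without NWD1 2, NWD1 3, NWD1VitD 1 or NWD1VitD 2. That of Uqcrfs1 was also lost with no filter on low counts and without NWD1VitD 3, and that of Cox6b2 on log2(TPM + 1), at 0.16. Uqcrfs1 had -0.65 on log2(TPM + 1), where its TPM was 433, 356 and 276 in NWD1VitD, against 487, 608 and 554 in NWD1. NWD1VitD and NWD1Ca are set against the same NWD1 libraries, so their folds are not independent.

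NWD1VitD was also set directly against NWD1Ca. No member differed, with 0% of 16050 genes called, and none of the 41 had an unadjusted p under 0.05, against 372 genes (2.32%). The median over members was -0.09, against -0.03 for all genes. Cox7a1 had 0.86 ± 0.57, Atp5k -0.14 ± 0.54, Uqcrq -0.06 ± 0.50 and Cox6c 0.02 ± 0.48 (log2 fold change ± SE, adjusted p = 1.0 for each). Differences of the size of these errors would not have been detected with 3 libraries a group.

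**Figure D3:**
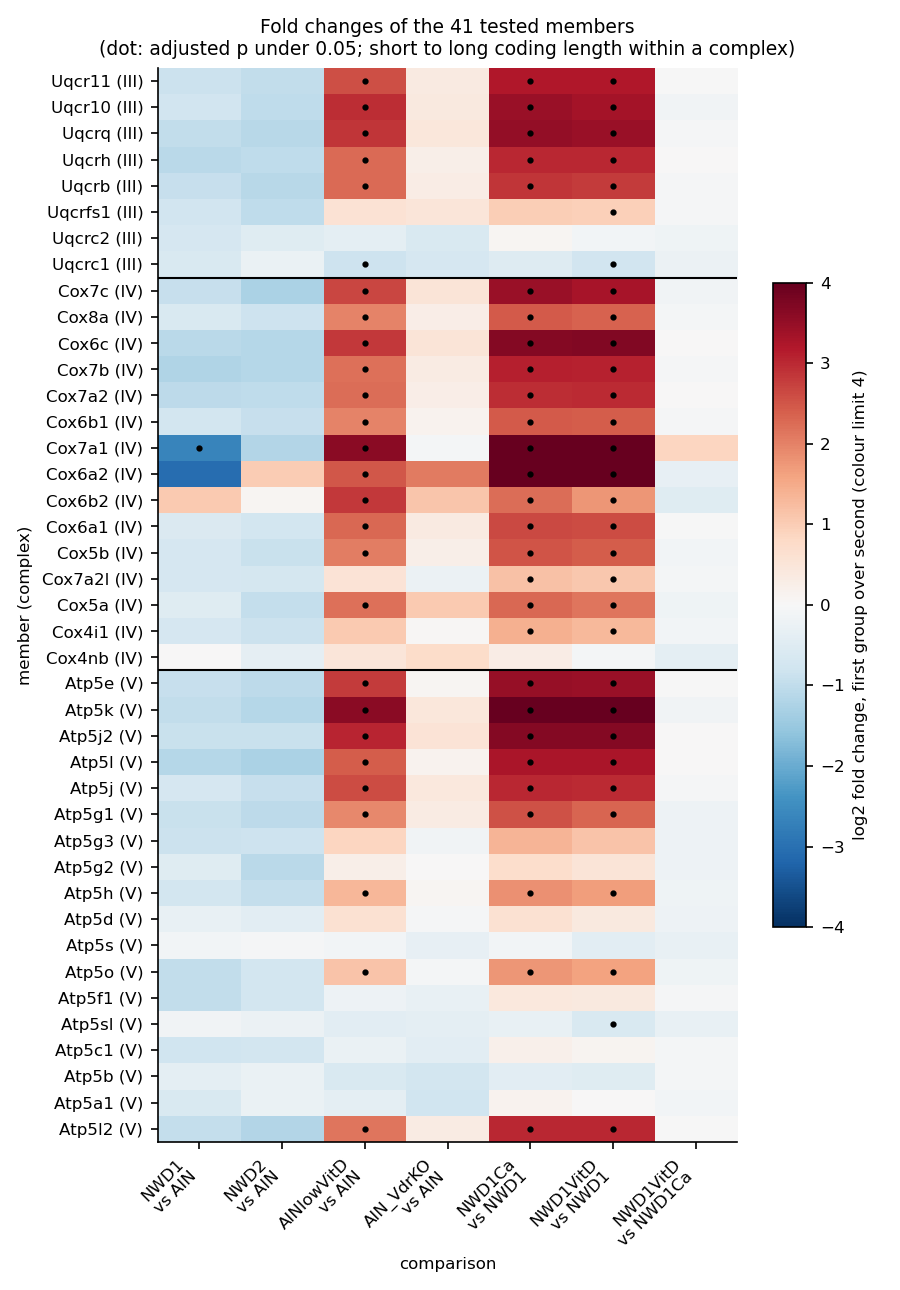
Log2 fold change of each of the 41 tested members, as rows grouped by complex, in each of the 7 comparisons, as columns, from the edgeR fit; the colour scale ends at 4 on either side, so the larger rises of Cox7a1, Cox6a2 and Atp5k exceed it, and dots mark members with an adjusted p under 0.05. Within a complex, members run from short to long coding length, with Atp5l2, which has none, last. Most small subunits are high in AINlowVitD against AIN and in NWD1Ca and NWD1VitD against NWD1, and 39 of 41 are below 0 in NWD1 and in NWD2 against AIN.

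Summed markers of several other cell types moved with the members in these comparisons, and some lists overlapped between the groups compared. The 9 enterocyte genes summed to 18107 to 61739 CPM in AINlowVitD, 26480 to 49683 in NWD1VitD and 18574 to 35351 in NWD1Ca. These sums lay above the 1583 to 3479 CPM of NWD1 and the 12498 to 18038 CPM of AIN. Taken singly, Sis, Alpi and Apoa1 of this list overlapped AIN in each of these groups. Sis was at 2209, 1022 and 1669 CPM in NWD1Ca, against 2858, 1733 and 3847 in AIN. The 8 Lgr5 stem cell genes summed to 854 to 2470 CPM in AINlowVitD, 936 to 2863 in NWD1VitD and 1174 to 1770 in NWD1Ca. They summed to 6277 to 9132 CPM in NWD1 and 2107 to 3999 in AIN, so that AINlowVitD overlapped AIN. Olfm4 made up most of these sums. Ascl2 alone was at 16.5, 61.6 and 59.4 CPM in AINlowVitD, against 10.7, 35.1 and 13.4 in AIN. The 6 goblet cell genes summed to 36623 to 57869 CPM in AINlowVitD, 35255 to 79065 in NWD1VitD and 42566 to 49168 in NWD1Ca, against 8787 to 21668 in NWD1 and 14854 to 29256 in AIN. The 5 Paneth cell genes summed to 10463 to 49329 CPM in AINlowVitD, 15398 to 65292 in NWD1VitD and 10147 to 18847 in NWD1Ca, against 3604 to 11556 in NWD1 and 4484 to 6370 in AIN. For these genes NWD1Ca overlapped NWD1. The 6 enteroendocrine genes summed to 6037 to 9731 CPM in AINlowVitD, 6563 to 12191 in NWD1VitD and 5238 to 8651 in NWD1Ca, against 380.2 to 2584 in NWD1 and 2063 to 2227 in AIN. The 5 tuft cell genes overlapped between the groups, at 325 to 519.6 CPM in AINlowVitD, 229.6 to 880 in NWD1VitD and 237 to 437.6 in NWD1Ca, against 394 to 1398 in NWD1 and 249 to 651 in AIN. All genes of these 6 lists were counted in every library. Their part in the members' folds was not tested.

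AIN_VdrKO was compared with AIN for loss of the receptor, as labelled. No member passed, where 12.5% of all genes did, 7.44% higher and 5.09% lower, and 6 members (14.6%) had an unadjusted p under 0.05, against 27.4% of all genes, with 3 members called by DESeq2. The medians were 0.33 in complex III, 0.33 in complex IV and 0.00 in complex V. The alpha subunit Atp5a1 had 647, 816 and 1199.7 TPM in AIN_VdrKO, against 1331, 1406 and 2653 TPM in AIN, and a log2 fold change of -0.80 ± 0.27 (adjusted p = 0.0587). The beta subunit Atp5b had -0.74 ± 0.29 (adjusted p = 0.101), Uqcrc2 -0.61 ± 0.25 (adjusted p = 0.118) and Uqcrc1 -0.67 ± 0.31 (adjusted p = 0.168). These 4 genes and Atp5sl did not overlap between the groups in CPM and were lower in AIN_VdrKO, 5 of 41 members (12.2%), against 14.9% of all genes. Cox5a, a complex IV subunit on the matrix side, had 1708, 911 and 905 TPM in AIN_VdrKO, against 593, 886 and 384 TPM in AIN (1.06 ± 0.49, adjusted p = 0.168). Cox6a2 had 22, 5 and 30 counts in AIN_VdrKO and 13, 17 and 2 in AIN (adjusted p = 0.118). Cox7a1 had 663, 619 and 315 TPM in AIN_VdrKO, against 1175, 804 and 714 TPM in AIN, and -0.08 ± 0.58 on scaled counts (adjusted p = 0.946). All AIN_VdrKO libraries came from males, and without the term for sex Cox7a1 had -0.46 ± 0.53 (adjusted p = 0.583). The median over members turned on single libraries. It was 0.23 with all libraries, -0.41 without AIN_VdrKO 1, -0.22 without AIN 3 and 0.59 without AIN 1. The Paneth cell genes summed to 8110 to 34749 CPM in AIN_VdrKO, against 4484 to 6370 in AIN, the enterocyte genes to 7207 to 12998 CPM in AIN_VdrKO, against 12498 to 18038 in AIN, and the goblet cell genes to 7402 to 16589 CPM in AIN_VdrKO, against 14854 to 29256 in AIN. Their part in these values was not tested.

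Members of a complex did not rise alike, and their order followed coding length. Coding sequences of the tested members had a median of 361 nt, over 40 with a length from 156 to 1659, against 1377 nt over 13494 tested genes. Across the 40 members, the log2 fold change and coding length had a Spearman correlation of -0.86 in AINlowVitD against AIN, -0.87 in NWD1Ca against NWD1 and -0.87 in NWD1VitD against NWD1. It was -0.59 in AIN_VdrKO against AIN, and had the other sign in NWD1 and NWD2 against AIN, at 0.52 and 0.62. In NWD1VitD against NWD1Ca, where no member was called, it was -0.46. Across all genes the same correlations were -0.17, -0.19, -0.18, 0.01, 0.24, 0.46 and 0.03 in that order of comparisons. Genes share libraries, so these values describe the data and carry no test.

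Members with a coding sequence of up to 600 nt and longer ones stood apart. Of 30 short members, 24 (80%) rose in AINlowVitD, 26 (86.7%) in NWD1Ca and 26 (86.7%) in NWD1VitD, with medians of 2.26, 2.91 and 2.89. Of the 10 longer ones, which include Uqcrc1, Uqcrc2, Uqcrfs1, Atp5a1, Atp5b, Atp5c1 and Atp5f1, 1, 1 and 2 rose, with medians of -0.33, 0.16 and -0.04. Over the genome, of 1815 tested genes of up to 600 nt, the members among them, 32.1%, 35.0% and 39.7% rose, with medians of 0.61, 0.73 and 0.71, against 10.9%, 11.2% and 15.3% of 11679 longer genes. When a smooth trend on gene length was taken out of each library, 24 members rose and 2 fell in AINlowVitD, 26 rose and 0 fell in NWD1Ca, and 27 rose and 2 fell in NWD1VitD. The medians were then 1.2, 1.44 and 1.44, against -0.1, -0.07 and -0.07 for all genes, of which 4831, 4817 and 6605 were called. Lengths, markers, spike-ins and diets differ together in these comparisons, and their parts in the folds cannot be told apart.

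**Figure D4:**
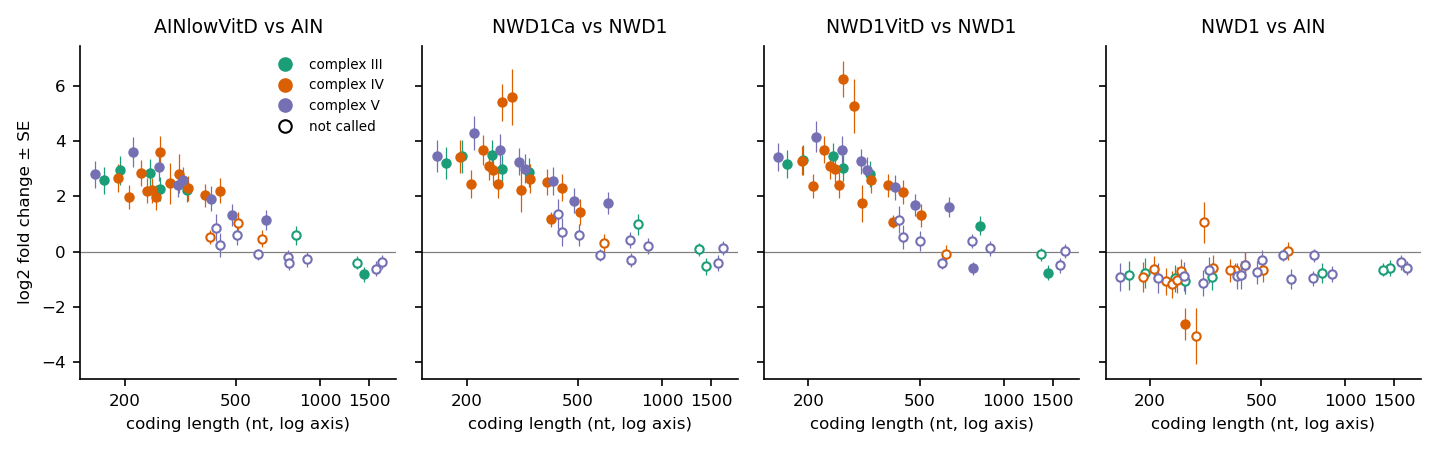
Log2 fold change of each of 40 members, with its SE, against coding length in nt on a log axis, in 4 comparisons, with complexes in different colours and open points for members not called. Short members lie highest in AINlowVitD against AIN, NWD1Ca against NWD1 and NWD1VitD against NWD1 (Spearman -0.86, -0.87 and -0.87), and most members lie a little below 0 in NWD1 against AIN (0.52).

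Other genes of the pathway were counted over lists chosen by function. Of 7 genes that work with these complexes or belong to them under other names, 6 rose in each of AINlowVitD against AIN, NWD1Ca against NWD1 and NWD1VitD against NWD1. In these comparisons 15.1%, 15.6% and 19.9% of all genes rose. Atpif1, the inhibitor of ATP synthase, had 2.88 ± 0.46, 3.38 ± 0.52 and 3.42 ± 0.47 in the first 3 (adjusted p = 0.000299, 0.000278 and 5.1e-05). Usmg5, a small subunit of complex V, had 2.66 ± 0.48, 4.09 ± 0.57 and 4.05 ± 0.51. Cytochrome c, Cycs, averaged 132 CPM in NWD1 and 372 CPM in AIN, a log2 fold change of -1.54 ± 0.40 (adjusted p = 0.0624). Cyc1, the cytochrome subunit of complex III, was the exception, at 0.11 ± 0.31, 0.19 ± 0.34 and 0.02 ± 0.31. Cycs and Cyc1 were picked out after their values were seen.

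Of the subunits encoded in mitochondrial DNA, 5 of 6 were tested and edgeR called 0 in each of the 7 comparisons. Only mt-Cytb of complex III and mt-Co1 of complex IV had many counts in every library. The counts of mt-Co2, mt-Co3 and mt-Atp6 were uneven, with at most 10 in 16, 11 and 14 of 21 libraries and up to 688, 8737 and 4500 in another, so the lack of calls says little of them. mt-Co2 and mt-Atp6 had an unadjusted p under 0.05 in NWD2 against AIN, where AIN 1 held the 688 counts of mt-Co2 and NWD2 3 the 4500 of mt-Atp6. mt-Co1 averaged 3181 CPM in AINlowVitD and 2915 CPM in AIN (0.10 ± 0.34), and mt-Cytb 6425 CPM in AINlowVitD and 4918 CPM in AIN (0.38 ± 0.35). In NWD1Ca against NWD1 they had -0.11 ± 0.37 and 0.31 ± 0.40, and in NWD1VitD against NWD1 -0.14 ± 0.33 and 0.02 ± 0.35.

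Assembly factors were called in both directions. Of 22 tested factors of complex IV, 9 rose and 3 fell in AINlowVitD against AIN, 10 rose and 1 fell in NWD1Ca against NWD1, and 9 rose and 1 fell in NWD1VitD against NWD1. The shares of all genes tested were 15.1%, 15.6% and 19.9% higher and 16.3%, 14.9% and 20.6% lower. The copper chaperone Cox17 had 2.80 ± 0.44, 3.04 ± 0.50 and 3.14 ± 0.45, and Cox15, which makes heme a, -1.48 ± 0.32, -1.44 ± 0.34 and -1.30 ± 0.32. Of 6 complex III factors 1 rose in each, and 2, 1 and 3 fell, too few to read against the shares of all genes called. Ttc19 had 1.38 ± 0.29, 1.60 ± 0.33 and 1.72 ± 0.30, and Uqcc -1.12 ± 0.21, -0.89 ± 0.23 and -1.20 ± 0.21. In AIN_VdrKO against AIN both were called as well, Ttc19 at 1.43 ± 0.33 (adjusted p = 0.00751) and Uqcc at -0.94 ± 0.23 (adjusted p = 0.00998). Of 4 complex V factors 1 rose in each, and 1, 0 and 1 fell. The factor that rose, 1110001J03Rik, also named Fmc1, is among the 6 of 7 counted above.

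Of 11 regulators, 1 rose and 3 fell in AINlowVitD against AIN, 2 rose and 3 fell in NWD1Ca against NWD1, 2 rose and 5 fell in NWD1VitD against NWD1, and 1 rose in AIN_VdrKO against AIN. These shares are small counts beside the 15.1%, 15.6% and 19.9% of all genes that rose and the 16.3%, 14.9% and 20.6% that fell in the first 3, and nothing is read from them. Nrf1, whose letters were searched in the promoters, fell in the first 3, with log2 fold changes of -0.73 ± 0.24, -1.09 ± 0.26 and -1.32 ± 0.25, and Yy1 rose by 1.60 ± 0.29, 1.60 ± 0.33 and 1.49 ± 0.29. Gabpa, the third factor searched, had -1.12 ± 0.33, -0.88 ± 0.35 and -1.12 ± 0.33 (adjusted p = 0.0151, 0.0589 and 0.0118). Ppargc1a, a coactivator of mitochondrial biogenesis, averaged 23.1 CPM in NWD1 and 78.7 CPM in AIN (-1.73 ± 0.54, adjusted p = 0.112).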

How the data were processed

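The authors deposited raw read counts per gene and TPM for 21 libraries made, per the labels' protocols, with SMART-Seq v4 and Nextera XT, which do not mark strand, so antisense reads cannot be told apart. The tools named in the submitters' processing notes are edgeR, HTSeq 0.6.1 and STAR 2.4.2a, with the build mm9. No source used here gives the annotation release. The deposited TPM values are the counts per gene length, rescaled in each library.

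Here the deposited counts were fitted with edgeR 4.0.16 in R 4.3.3: filterByExpr (16050 genes), TMM scaling, one term for sex beside the group means over 21 libraries, and two-sided quasi-likelihood tests with Benjamini-Hochberg adjustment over 16050 genes and a threshold of 0.05. Spike-ins stayed out of library sizes. SE is the log2 fold change divided by the root of F. The script was checked on simulated counts. Means are of CPM on TMM-scaled library sizes. Beyond diet, sex, age and index pair, the labels say of the libraries of a group only that they are separate mouse samples. The p-values therefore measure the spread between these. Coding lengths are the longest coding sequence per gene in GENCODE vM21. The members named in each comparison are the 2 of smallest p in each complex, any called against the main direction, and paralogs; others named were chosen after their values were seen. The members and lists were chosen with earlier results of these data known. Alternatives were DESeq2 1.42.0, limma 3.58.1 on log2(TPM + 1) or log2(TPM + 0.1), other filters, terms and library sets.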

Additional observations from a re-analysis of the deposited data

How the results depend on the processing

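The number of members called held within 1.5 times in AINlowVitD against AIN and in NWD1Ca and NWD1VitD against NWD1 under each alternative run. In NWD1 against AIN, where 1 member and 123 genes in all were called, DESeq2 called 3 (of 790 in all), no filter on low counts, no sex term and a length offset 2 each (of 969, 390 and 136 in all), and the fits without AIN 1, AIN 2 and NWD1 1, or without NWD1 1 and NWD1 2, called 0. These last 2 library sets were chosen after seeing the data. Leaving out 1 library at a time gave 0 to 1. In NWD2 against AIN, where 0 were called, no filter gave 1 (of 157 genes in all) and leaving out 1 library 0 to 5. In AIN_VdrKO against AIN, where 0 members and 2011 genes were called, DESeq2 gave 3 (of 2981), no sex term 2 (of 2811), the length offset 1 (of 2286), the fit without AIN 1, AIN 2 and NWD1 1 gave 4 (of 3701), and leaving out 1 library 0 to 3.

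Some log2 fold changes turned. On log2(TPM + 1) and log2(TPM + 0.1), in AINlowVitD against AIN, Cox4i1 had -0.03, Atp5g3 -0.29 and Uqcrfs1 -0.43, Cox7a2l had -0.10 in NWD1Ca against NWD1, Uqcrfs1 -0.65 in NWD1VitD against NWD1, and the median over members was -0.14 in AIN_VdrKO against AIN. That median was -0.22 without AIN 3, and ranged from -0.41 (without AIN_VdrKO 1) to 0.59 (without AIN 1). Cox7a1 in AIN_VdrKO against AIN was 0.26 without AIN 1, -0.45 without AIN_VdrKO 1, 0.29 without AIN_VdrKO 3 and 0.17 without AIN 1, AIN 2 and NWD1 1, where Uqcrfs1 in NWD2 against AIN was 0.01. The median of NWD1VitD against NWD1Ca was 0.01 with only the 2 groups. The cause was not tested. With the replicate number as a block, the numbers of members called were 1 in NWD1, 0 in NWD2, 28 in AINlowVitD and 0 in AIN_VdrKO against AIN, 29 in NWD1Ca and 31 in NWD1VitD against NWD1, and 0 between the last 2. The numbers of all genes called were then 129, 0, 5121, 2073, 5004, 6686 and 0 in the same order. Libraries of the same number deviated together in 9 of 21 pairs (correlation over 0.1, range -0.287 to 0.586) and in every pair of 0 of 7 comparisons, so the numbers were not taken to pair libraries.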
